A study of Homo sapiens with 4 samples.

Results

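The pre-B cell receptor and the first steps of its signalling were followed through 9 genes, VPREB1, IGLL1, VPREB3, CD79A, CD79B, SYK, BTK, BLNK and CD22. They were chosen by gene name from a table of 20665 genes, and each name matched exactly 1 row. The table holds 4 RNA-seq libraries of NALM6, an established human cell line grown out of a B cell precursor acute lymphoblastic leukemia. In the 2 AICAR libraries the cells spent 24 h in medium without glucose and were then given 15 mM AICAR for 45 min. In the 2 vehicle libraries the cells received the solvent DMSO for 45 min. Cells phosphorylate the nucleoside AICAR into a mimic of AMP, and it is used to activate the energy sensor AMPK. The culture medium of all cells was RPMI with serum, and a glucose-free period is mentioned in the labels of the AICAR libraries but not in those of the vehicle libraries. AICAR and glucose deprivation therefore cannot be told apart in these libraries. Nothing in the labels says that the 2 libraries of a group came from separate cultures, so p-values measure the spread between these libraries, which may be technical.

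The pre-B cell receptor is the checkpoint receptor of developing B cells. A newly made immunoglobulin mu heavy chain pairs with a surrogate light chain, formed by the products of VPREB1 and IGLL1, and sits in the membrane with CD79A and CD79B. The tyrosines in the tails of CD79A and CD79B are phosphorylated by SRC family kinases and then bind the kinase SYK. SYK phosphorylates the adaptor BLNK, which brings BTK to phospholipase C gamma, while CD22 recruits phosphatases that dampen the signal.

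The labelled cell type fitted most of the markers measured. All 8 markers of B cell precursors were in the table, with summed levels of 1931 to 1954 CPM in the AICAR libraries and 1958 to 1993 CPM in the vehicle libraries (CPM, counts scaled to a common library size with TMM factors). Of these markers, 2 were called higher and 3 lower with AICAR, beside 19.4% and 19.7% of all tested genes. The highest was MME, which encodes the surface enzyme CD10, at means of 775 CPM with AICAR and 743 CPM with vehicle. CD34 was the lowest, at 3.29 to 3.67 CPM over the 4 libraries. Those called lower were RAG1, RAG2 and EBF1. The summed markers of T cells lay between 4.14 and 4.62 CPM over the 4 libraries and those of natural killer cells between 4.02 and 4.29 CPM, with the groups overlapping. Other lists were higher in both AICAR libraries than in both vehicle libraries. Mature B cell markers summed to 1.03 and 1.08 CPM with AICAR and to 0.708 and 0.897 CPM with vehicle. Plasma cell markers reached 32.5 to 34.1 CPM with AICAR and 31.8 to 31.9 CPM with vehicle, mostly from SDC1. Myeloid markers summed to 3.38 CPM in each AICAR library and to 2.20 and 2.61 CPM with vehicle. The erythroid gene HBB was at 0.0313 and 0.12 CPM with AICAR and at 0 in both vehicle libraries. No marker of these other cell types was called, and their part in the results below was not tested. In RNA from whole cultures, fewer cells of a type and less RNA per cell cannot be told apart.

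The surrogate light chain genes and CD79A are shown here by the 250 bases before their start sites, because their proteins build or accompany the receptor at the pre-B stage. IGLL1, VPREB3 and CD79A were called higher with AICAR and VPREB1 was not, while the differences between these genes were not tested. The sequences are those of RefSeq on GRCh38.p14, 5′ to 3′ along the gene. VPREB1 is at chr22:22244536-22244785 on the plus strand, IGLL1 at chr22:23580291-23580540 on the minus strand, VPREB3 at chr22:23754426-23754675 on the minus strand and CD79A at chr19:41877029-41877278 on the plus strand. Capitals mark 3 motifs searched on both strands: the E-box CAGNTG, the palindrome CCCNNGGG that lies at the core of EBF1 binding sites, and the octamer ATGCAAAT of immunoglobulin promoters. Overlapping matches were joined.
VPREB1: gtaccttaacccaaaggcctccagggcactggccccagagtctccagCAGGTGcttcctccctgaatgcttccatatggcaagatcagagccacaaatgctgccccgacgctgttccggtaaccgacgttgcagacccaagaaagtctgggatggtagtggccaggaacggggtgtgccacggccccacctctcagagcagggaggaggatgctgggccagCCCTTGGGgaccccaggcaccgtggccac
IGLL1: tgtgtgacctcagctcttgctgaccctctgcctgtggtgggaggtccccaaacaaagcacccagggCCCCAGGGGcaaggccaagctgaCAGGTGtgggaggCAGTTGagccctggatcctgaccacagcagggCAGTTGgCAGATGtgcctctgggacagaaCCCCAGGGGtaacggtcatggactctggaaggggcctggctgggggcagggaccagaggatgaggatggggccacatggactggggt
VPREB3: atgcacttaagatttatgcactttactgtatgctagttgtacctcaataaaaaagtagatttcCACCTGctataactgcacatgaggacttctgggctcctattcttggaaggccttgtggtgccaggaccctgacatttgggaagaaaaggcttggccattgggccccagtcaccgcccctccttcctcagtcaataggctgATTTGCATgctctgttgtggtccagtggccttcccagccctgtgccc
CD79A: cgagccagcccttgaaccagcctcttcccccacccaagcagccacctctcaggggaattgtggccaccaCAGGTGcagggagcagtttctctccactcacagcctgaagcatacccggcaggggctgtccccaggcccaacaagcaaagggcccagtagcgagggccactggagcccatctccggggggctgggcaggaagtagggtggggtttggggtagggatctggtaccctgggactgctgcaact

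The E-box letters were present in all 4 windows, with 4 matches in IGLL1 and 1 in each of the others, and in 42.5% of all 35116 RefSeq windows of 250 bases. The EBF1 palindrome occurred in the windows of VPREB1, which was not called, and IGLL1, which was called, where 4 overlapping matches formed 2 runs. It was present in 17.1% of all windows. The octamer was found in the VPREB3 window alone of these 4, beginning 47 bases before the start site, and in 1.63% of all windows. These matches are descriptions of letters, not of bound sites. Of the 9 genes, 8 had a window in this table, and CD79B is named only. In the windows not printed, the E-box was absent from the CD22 window and from 1 window each of SYK and BTK. It was present in the BLNK window and in the remaining SYK and BTK windows. The EBF1 palindrome was in 1 BTK window.

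The 9 genes were strongly expressed in this line and most of the differences were small. All 9 passed the low-count filter, with CD22 the lowest at 1184 to 1277 counts, and together they held 0.269% and 0.276% of all counts in the AICAR libraries and 0.254% and 0.252% in the vehicle libraries. By the deposited FPKM, which counts reads per length of transcript, the order of the mean levels was the same in both groups. IGLL1 was highest, followed by VPREB1, CD79B, VPREB3, CD79A, SYK, BTK, BLNK and CD22. The FPKM of SYK and of BTK overlapped between these neighbours, with 74.1 and 69.7 FPKM for SYK and 68.7 and 66.4 FPKM for BTK in the AICAR libraries not crossing, but 72.9 and 62.6 FPKM for SYK and 65.5 and 62.1 FPKM for BTK in the vehicle libraries crossing. The span from IGLL1, at 1485 ± 71.1 FPKM with AICAR and 1323 ± 5.83 FPKM with vehicle, to CD22, at 14.7 ± 0.389 FPKM with AICAR and 18.2 ± 2.72 FPKM with vehicle, was wide (SD, n = 2 each).

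**Figure D1:**
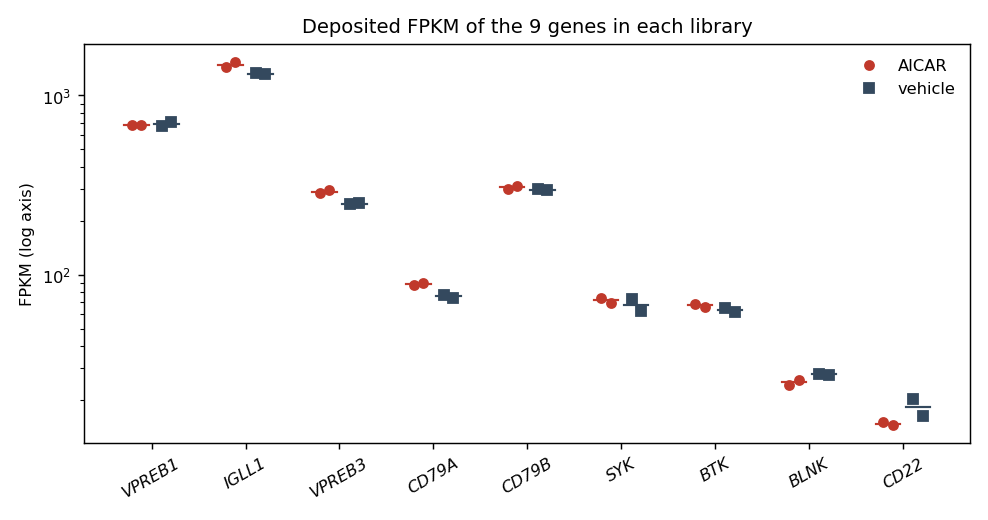
Deposited FPKM of the 9 genes (log axis) in the 2 AICAR libraries (red circles) and the 2 vehicle libraries (dark squares), with lines at the group means. The levels run from about 15 FPKM for CD22 to 1323 FPKM and above for the IGLL1 means, and the difference between genes is far wider than that between groups.

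Of the 9 genes, 6 rose with AICAR (IGLL1, VPREB3, CD79A, CD79B, SYK and BTK), none fell, and VPREB1, BLNK and CD22 did not pass the threshold. Each of the 13626 genes that passed the filter was tested by edgeR's quasi-likelihood method, with a threshold of 0.05 on the Benjamini-Hochberg adjusted p. It called 39.1% of all tested genes, 19.4% higher and 19.7% lower. Calls were more frequent among abundant genes: of the 4350 genes at least as abundant as CD22, 44.2% were called higher and 15.8% lower. The 6 calls thus make up 66.7% of the 9 genes, beside a background of 44.2% at comparable levels. The median log2 fold change of the 9 genes was 0.17, and that of all tested genes was -0.00. With genes of a mean under 10 CPM left out, the medians were 0.13 and -0.005. Medians and overlaps were not taken among genes at the level of CD22 or above alone. Both AICAR values were above both vehicle values for 7 of the 9 genes and below them for 1, beside 34.3% and 34.9% of all tested genes (69.2% without overlap in either direction).

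The number of calls depended on the scaling. With libraries scaled by total counts alone, 3 of the 9 genes were higher and 1 lower, beside 10.2% and 23.0% of all genes. DESeq2 called 6 of the 9 higher and none lower, beside 14.5% and 14.2% of the genes it tested. On log2(FPKM + 1) limma called 2 higher and none lower, beside 2.6% and 6.36%.

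VPREB1 and IGLL1 encode the variable-like and constant-like parts of the surrogate light chain. VPREB1 had 423.0 and 429 CPM in the AICAR libraries, against 397 and 433 CPM in the vehicle libraries. The values of the groups overlap. The log2 fold change was 0.04 ± 0.0455 (SE; edgeR adjusted p = 0.568), and its 95% interval ran from 4.28% lower to 9.94% higher with AICAR.

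IGLL1 was the most abundant of the 9, with 1146 and 1235 CPM in the AICAR libraries and 1014 and 1044 CPM in the vehicle libraries. Both AICAR values lie above both vehicle values. It rose by 15.7%, at 0.21 ± 0.0444 on the log2 scale (SE; edgeR adjusted p = 0.00302). The call was lost without AICAR replicate 2, which left 0.16. It was also lost in limma on log2(FPKM + 1) (0.17, adjusted p = 0.0673) and on log2(FPKM + 0.1) (0.17, adjusted p = 0.0667). IGLL1 is closely related to the immunoglobulin lambda constant genes, and it was the sole gene of the 9 with estimated counts that were not whole (by more than 0.001), in all 4 libraries, as were those of IGLC3 and IGLC7. Counts that are not whole arise where the estimation divides reads among loci. The table does not show which loci these were, so the count of IGLL1 is given as uncertain.

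VPREB3 encodes a relative of VPREB1 that associates with the mu heavy chain in the endoplasmic reticulum. It had 154 and 161 CPM in the AICAR libraries, against 127 and 133 CPM in the vehicle libraries, with no overlap. It rose by 21.4%, at 0.28 ± 0.0416 on the log2 scale (SE; edgeR adjusted p = 0.00033). It was called in all 17 alternative settings tried. The FPKM of IGLL1 was 2.09 and 2.24 times that of VPREB1 in the AICAR libraries and 1.95 and 1.85 times in the vehicle libraries. The ratios do not overlap, but an exact two-sided permutation test of 2 libraries against 2 cannot go below p = 0.333, the value it gave.

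CD79A and CD79B encode the signalling subunits that the pre-B and the mature B cell receptor share. CD79A had 92.2 and 94.7 CPM in the AICAR libraries and 77.4 and 77.5 CPM in the vehicle libraries. The groups are well apart, and the replicates of each are close. It rose by 20.7%, at 0.27 ± 0.0389 on the log2 scale (SE; edgeR adjusted p = 0.000256), and was called in all 17 alternatives.

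CD79B had 312 and 329 CPM in the AICAR libraries and 283 and 300.3 CPM in the vehicle libraries. The lower AICAR value is above the higher vehicle value by less than the distance between replicates of either group. It rose by 9.88% (log2 fold change 0.14 ± 0.0441 SE, edgeR adjusted p = 0.0296). It was no longer called in 8 of 17 alternatives, among them without vehicle replicate 1 (0.09) and without AICAR replicate 2 (0.10). The CD79B to CD79A ratio of FPKM was 3.44 and 3.48 in the AICAR libraries and 3.88 and 4.0 in the vehicle libraries (exact permutation p = 0.333, the smallest possible).

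SYK and BTK encode tyrosine kinases, SYK binding the phosphorylated receptor tails and BTK activating phospholipase C gamma. SYK had 348 and 342 CPM in the AICAR libraries, against 312 and 301 CPM in the vehicle libraries. BTK had 172 and 169 CPM in the AICAR libraries, against 154 and 149 CPM in the vehicle libraries. Neither gene's values overlap between groups. Their rises were close to each other, by 12.5% for SYK (log2 fold change 0.17 ± 0.0387 SE) and 12.4% for BTK (0.17 ± 0.0379 SE), with edgeR adjusted p of 0.00468 and 0.00431. With libraries scaled by total counts alone neither was called, at log2 fold changes of 0.11 for both (adjusted p = 0.0909 for SYK and 0.11 for BTK). On log2(FPKM + 1) neither was called by limma, at 0.09 for SYK (adjusted p = 0.553) and 0.08 for BTK (adjusted p = 0.368).

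BLNK encodes the adaptor that links SYK to BTK and phospholipase C gamma. It had 39.8 and 43.1 CPM in the AICAR libraries and 43.6 and 45.6 CPM in the vehicle libraries. Its AICAR values both lie below its vehicle values, by a small margin. The log2 fold change was -0.11 ± 0.054 (SE; edgeR adjusted p = 0.146), with a 95% interval from 14.4% lower to 0.861% higher. BLNK was called lower with total counts alone (-0.17, adjusted p = 0.0474) and when genes with means under 10 CPM were left out (-0.15, adjusted p = 0.0337). Without AICAR replicate 1 the value was -0.05 (adjusted p = 0.646).

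CD22, the lectin that carries inhibitory tyrosine motifs and counters the receptor, gave opposite directions in TMM-scaled CPM and in the deposited FPKM. Neither difference passed the threshold. Its deposited counts overlapped, at 1184 and 1277 in the AICAR libraries and 1249 and 1205 in the vehicle libraries. After TMM scaling CD22 had 37.1 and 38.2 CPM in the AICAR libraries, against 35.4 and 32.8 CPM in the vehicle libraries, both higher with AICAR. The log2 fold change was 0.14 ± 0.0553 (SE; edgeR adjusted p = 0.0587), and 0.08 with total counts alone (adjusted p = 0.385). It was called without vehicle replicate 1 (0.20, adjusted p = 0.0135), while without vehicle replicate 2 the value was 0.08 (adjusted p = 0.401). Its FPKM was 15.0 and 14.5 in the AICAR libraries and 20.2 and 16.3 in the vehicle libraries, both lower with AICAR. On log2(FPKM + 1) the difference was -0.28 (limma adjusted p = 0.174).

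Counts and FPKM of a gene differ by the transcript length that enters the FPKM. The length implied by their ratio, relative to the vehicle mean, was 1.28 and 1.34 for CD22 in the AICAR libraries and 0.953 and 1.05 in the vehicle libraries. It was 30.7% longer with AICAR on average (exact permutation p = 0.333, the smallest possible). For the other 8 genes it changed by between -1.15% and 2.44%. Of 9887 well-counted genes, with at least 100 counts and 1 FPKM in every library, 30 (0.303%) had a gain at least as large. CD22 was singled out here after its values were seen. The deposited gene-level table does not hold the transcripts behind this length.

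**Figure D2:**
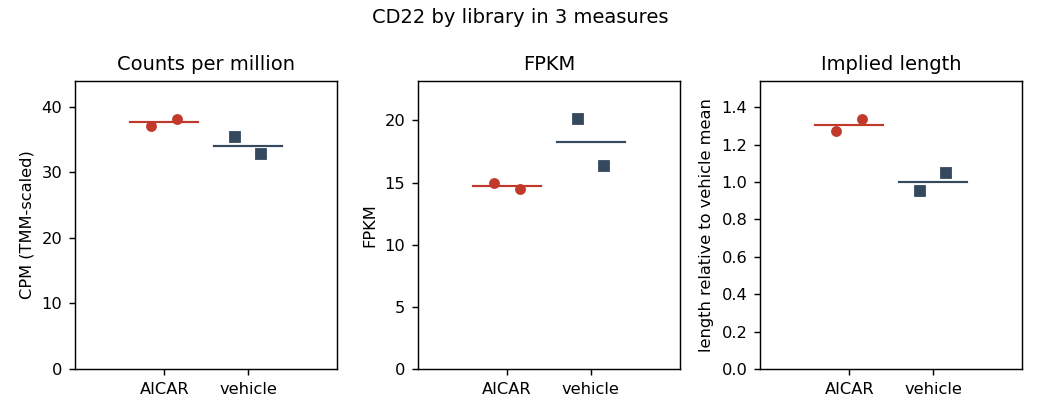
CD22 in each library as TMM-scaled CPM, as deposited FPKM and as the length implied by count and FPKM relative to the vehicle mean, with AICAR as red circles, vehicle as dark squares and lines at the means. The AICAR values are above the vehicle values in CPM (37.1 and 38.2 against 35.4 and 32.8) and in length, and below them in FPKM.

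In these libraries short transcripts as a whole had higher log2 fold changes. The tested protein-coding genes were divided by implied length into 5 classes of equal size. VPREB1, IGLL1, VPREB3, CD79A and CD79B belong to the shortest class, whose median log2 fold change was 0.11 and of which 32.4% were called higher. The other classes had medians of -0.04 to 0.02, with 17.9% to 21.7% called higher. BLNK was in class 2, CD22 in class 3, BTK in class 4 and SYK in class 5, the longest. With the trend on length removed from each library, the values were 0.13 for IGLL1, 0.18 for VPREB3, 0.23 for CD79A, 0.09 for CD79B, 0.21 for SYK and 0.23 for BTK, all still called (edgeR adjusted p from 0.000188 to 0.0478). In that fit 21.0% of all genes were higher and 18.7% lower. CD22 was then called higher as well (0.20, adjusted p = 0.011). VPREB1 had -0.06 (adjusted p = 0.172) and BLNK -0.09 (adjusted p = 0.212).

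**Figure D3:**
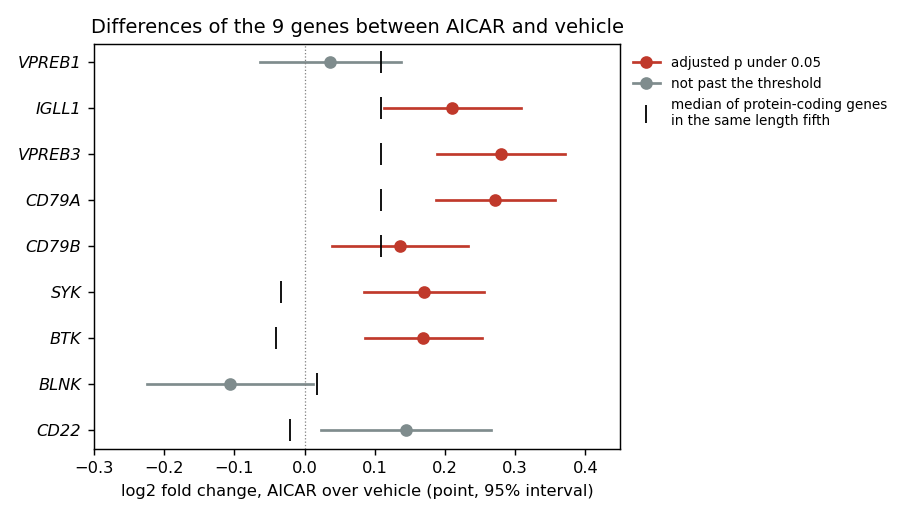
Log2 fold change of each gene, AICAR over vehicle, with its 95% interval from edgeR's quasi-likelihood test; red marks an adjusted p under 0.05 and grey the others. Black ticks give the median of protein-coding genes in the same length class, and it lies at 0.11 for the 5 short genes at the top, inside the intervals of VPREB1 and CD79B.

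In the authors' deposited table the same 6 genes have a q-value under 0.05. Its log2 fold changes are 0.21 for IGLL1, 0.28 for VPREB3, 0.27 for CD79A, 0.14 for CD79B and 0.17 for SYK and BTK, and 13.3% of the 12652 genes with a q-value in the authors' deposited table are called higher. The same libraries underlie both sets of values.

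Around these genes, 108 other genes of the pathway were tested in 10 lists, of which 40 rose and 22 fell (37.04% and 20.4%), beside 19.4% and 19.7% of all tested genes. At the level of CD22 or above, where 44.2% of all genes were higher and 15.8% lower, 29 of 59 pathway genes were higher (49.2%) and 13 lower (22.03%), so the share of rises was near that background. The lists came from textbook knowledge but were chosen with earlier results of these data known. Their median log2 fold change together was 0.09. On log2(FPKM + 1) limma called 2 pathway genes higher and 3 lower, beside 2.6% and 6.36% of all genes in that fit. The calls of BLK, CSK, ZAP70 and INPP5D, given below, were among those lost. The plot by list shows that red and blue points occur in nearly every branch.

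**Figure D4:**
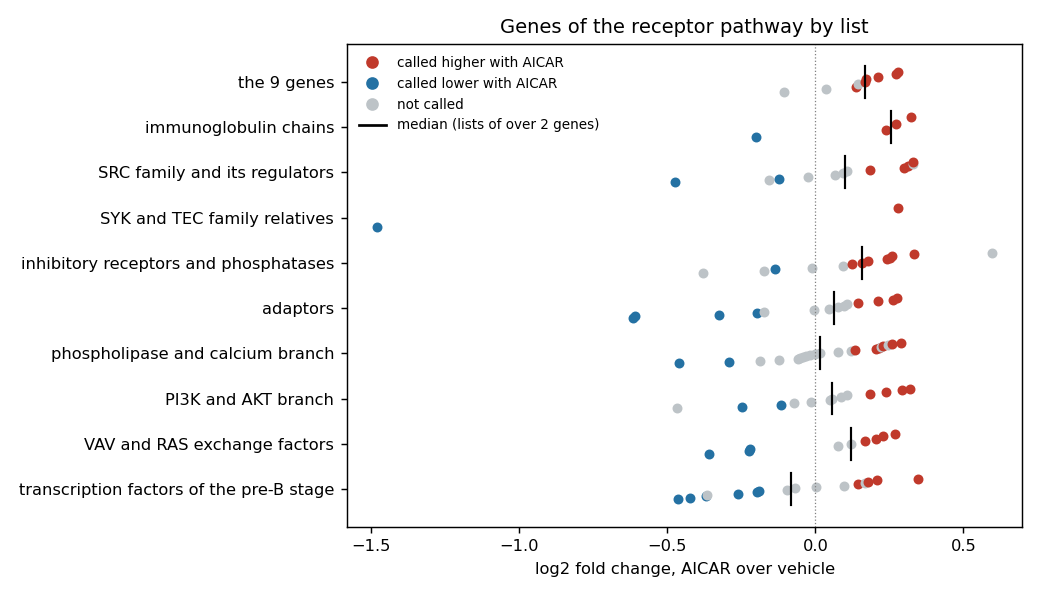
Log2 fold changes, AICAR over vehicle, of the 9 genes and of each tested gene in 9 of the 10 pathway lists, coloured by call (edgeR adjusted p under 0.05). Black lines are medians of lists with over 2 genes. The leftmost point is TEC at -1.48, and the transcription factor list has a median below 0, at -0.08.

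RNA of the constant gene for the heavy chain that pairs with the surrogate light chain was higher with AICAR. IGHM, the mu constant gene, had 1378 and 1415 CPM in the AICAR libraries and 1209 and 1156 CPM in the vehicle libraries, with no overlap (log2 fold change 0.24 ± 0.0402 SE, edgeR adjusted p = 0.000732). IGHD, of the delta chain, rose by 0.32, and the lambda constant gene IGLC7 by 0.27. On log2(FPKM + 1) limma called neither IGHM (0.18, adjusted p = 0.0766) nor IGHD (0.25, adjusted p = 0.116). IGLC3 fell, with 148 and 154 CPM in the AICAR libraries against 175 and 171 CPM in the vehicle libraries (-0.20). The counts of IGLC3 and IGLC7 were not whole in all 4 libraries, so both are given as uncertain. Which loci shared their reads was not tested. Both kept their direction and call in each alternative that tests them.

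SRC family kinases start the phosphorylation of the CD79 tails. Of 12 tested genes of this family and its regulators, 4 rose and 2 fell (median 0.10). BLK, the B lineage member, had 62.6 and 62.0 CPM in the AICAR libraries and 49.99 and 49.2 CPM in the vehicle libraries (log2 fold change 0.33 ± 0.0428 SE, edgeR adjusted p = 0.000134). LYN, the main SRC kinase of B cells, was not called at 0.09 (adjusted p = 0.152). With the length trend removed it was called higher (0.15, adjusted p = 0.0177), while it was at 0.05 (adjusted p = 0.602) without vehicle replicate 2 and at 0.03 (adjusted p = 0.738) with total counts alone. CSK, which inactivates the family, rose by 0.31. YES1 fell, at -0.47. PAG1, the membrane anchor of CSK, fell (-0.12). Its call was lost in some alternatives, among them without AICAR replicate 1 (-0.13) or AICAR replicate 2 (-0.11). With no low-count filter edgeR did not call PAG1 either (adjusted p = 0.0524).

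The relatives of SYK and BTK moved in opposite directions. ZAP70, the SYK relative of T cells that this line also transcribes, had 30.9 and 33.9 CPM in the AICAR libraries and 27.4 and 26.0 CPM in the vehicle libraries (log2 fold change 0.28, edgeR adjusted p = 0.00398). TEC, of the family of BTK, was scarce and fell to 1.38 and 1.35 CPM in the AICAR libraries, against 3.82 and 3.78 CPM in the vehicle libraries. This was a 2.79-fold fall (-1.48 ± 0.188 SE, adjusted p = 0.000116).

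The inhibitory receptors and phosphatases that act with or beside CD22 had 7 of 13 tested genes higher and 1 lower (median 0.16). The shares were 53.8% and 7.69%, beside 19.4% and 19.7% of all tested genes. At the level of CD22 or above, 44.2% of all genes were higher and 15.8% lower. The list was not tested against these shares. INPP5D, the inositol phosphatase SHIP1, had 100.5 and 101 CPM in the AICAR libraries and 89.4 and 81.1 CPM in the vehicle libraries (log2 fold change 0.24, edgeR adjusted p = 0.00203). Its relative INPPL1 rose by 0.33 and the tyrosine phosphatase gene PTPN11 by 0.26. PTPN6, the phosphatase SHP-1 that CD22 recruits, rose by 0.12 (adjusted p = 0.0301). That call was lost with total counts alone (0.06), without vehicle replicate 2 (0.08) and without AICAR replicate 2 (0.10). It was also lost in DESeq2 (adjusted p = 0.0685) and in limma on log2(FPKM + 1) (adjusted p = 0.43). The edgeR fits with no low-count filter (adjusted p = 0.109) and with means of at least 10 CPM (adjusted p = 0.0806) did not call PTPN6 either.

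Adaptors were split, with 4 of 14 tested genes higher and 4 lower (median 0.06). CRK had 17.0 and 15.1 CPM in the AICAR libraries, against 25.7 and 23.5 CPM in the vehicle libraries, a 1.53-fold fall (log2 fold change -0.61, edgeR adjusted p = 9.51e-05). NCK1, an SH2 and SH3 domain adaptor that binds BLNK, fell 1.53-fold as well (-0.61, adjusted p = 5.9e-05). HCLS1, a cytoskeletal substrate of SYK, and SH3KBP1, which also binds BLNK, rose by 0.28 and 0.26.

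Downstream of BLNK, the phospholipase and calcium branch had 6 of 21 tested genes higher and 2 lower (median 0.02). PLCG2, the phospholipase that BTK activates, had 80.2 and 76.7 CPM in the AICAR libraries and 73.9 and 69.2 CPM in the vehicle libraries (log2 fold change 0.13, edgeR adjusted p = 0.0382). The call was lost with total counts alone (0.07), without vehicle replicate 2 (0.08) and without AICAR replicate 1 (0.10). It was also lost in DESeq2 (adjusted p = 0.132) and in limma on log2(FPKM + 1) (adjusted p = 0.807). The edgeR fits with no low-count filter (adjusted p = 0.0993) and with means of at least 10 CPM (adjusted p = 0.0954) did not call PLCG2 either. BCL10, which carries the signal to NF-kB, fell (-0.46), as did the calcineurin subunit gene PPP3R1 (-0.29). The calcium channel gene ITPR2 rose by 0.29 in counts but was at -0.26 on log2(FPKM + 1) (limma adjusted p = 0.425), and its call was lost without AICAR replicate 1 (0.22). The kinase gene PRKCA rose by 0.26, a call lost without vehicle replicate 2 (0.19) or AICAR replicate 1 (0.22).

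In the PI3K and AKT branch 4 of 13 tested genes rose and 2 fell (median 0.05). AKT1 had 103 and 108 CPM in the AICAR libraries and 88.1 and 81.3 CPM in the vehicle libraries (log2 fold change 0.32, edgeR adjusted p = 0.000306). The regulatory subunit gene PIK3R2 rose by 0.29 and was not called without AICAR replicate 2 (0.21). The catalytic subunit genes PIK3CA and PIK3CG fell (-0.25 and -0.11). PIK3CA was not called without AICAR replicate 2 (-0.13), and the call of PIK3CG was lost on leaving out vehicle replicate 1 (-0.11), AICAR replicate 1 (-0.08) or AICAR replicate 2 (-0.14). Among VAV and RAS exchange factors and their GTPases, 4 of 9 tested genes rose and 3 fell (median 0.12). The GTPase genes RAC2 and RHOA rose by 0.27 and 0.23, and the exchange factor genes SOS1 and SOS2 fell (-0.36 and -0.23), neither being called without vehicle replicate 1 (-0.16 and -0.18).

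Among transcription factors of the pre-B stage the falls outnumbered the rises, at 6 and 4 of 16 tested (median -0.08). TCF3, which encodes the E-box binding E2A proteins, had 416 and 430.1 CPM in the AICAR libraries and 343 and 322 CPM in the vehicle libraries (log2 fold change 0.35, edgeR adjusted p = 9.11e-05). EBF1, given here because of the palindrome above and chosen after its values were seen, had 108 and 103 CPM in the AICAR libraries, against 124 and 118 CPM in the vehicle libraries. It fell by 0.20 on the log2 scale (edgeR adjusted p = 0.00319). The repressor gene BCL6 fell (-0.46), as did IRF4, which in mice promotes light chain rearrangement (-0.42). The rise of SPI1, which encodes PU.1, was 0.21 (adjusted p = 0.0431) and was lost on leaving out any single library (0.19 to 0.23).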

How the data were processed

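Total RNA of 4 NALM6 libraries (2 AICAR, 2 vehicle) was sequenced as single reads after a stranded total RNA preparation, per the labels' protocols. Per the submitters' processing notes, the tools were STAR 2.5.3a, RSEM 1.2.31, Trimmomatic 0.32 and DESeq2, in no stated order, with the genome build hg19 (annotation: not given in the sources used here). As deposited, the tables hold expected counts (estimated counts per gene, not normalized), FPKM values (normalized by the authors for effective length and depth) and their own log2 fold changes and q-values (an adjusted p-value per gene). Depth was 32318376 and 34458010 counts in the AICAR libraries and 33919915 and 36769116 in the vehicle libraries.

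Expected counts were rounded, filtered with filterByExpr (minimum count 10, minimum total 15), scaled by TMM and tested with edgeR 4.0.16 in R 4.3.3 (two-sided quasi-likelihood test, Benjamini-Hochberg adjustment, threshold 0.05). The SE is the log2 fold change divided by the root of its F value, and intervals are 95%. The implied length is the count divided by the FPKM, with each library's median factor removed. Replicates were compared with counting error (chi-square per gene 2.96 for AICAR and 8.35 for vehicle, where counting error alone gives about 1), and none was treated as a copy. Where 1 library is left out, the lone library of its group is assumed to vary like the other group.

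The members and lists were chosen with earlier results of these data known. The genes named are the 9, a few fixed by name, and in each list the 2 highest and 2 lowest called genes; some genes and 1 list are not reported here. Alternatives used limma 3.58.1 and DESeq2 1.42.0 among others; the procedure was checked on simulated data. Plots used Python 3.11.15 and matplotlib 3.10.9. EBF1, RAG1, RAG2 and the variable genes are named outside this rule, after their values were seen.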

Additional observations from a re-analysis of the deposited data

How the results depend on the processing

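Of the 9 genes, 6 were higher and none lower as reported. Total counts alone gave 3 higher and 1 lower, log2(FPKM + 1) and log2(FPKM + 0.1) in limma 2 higher each, and a mean of at least 10 CPM 1 lower. Leaving out each library in turn gave 4 to 6 higher and none lower, 31 to 41 pathway genes higher and 18 to 23 lower, and 2033 to 2616 genes higher and 2335 to 2643 lower in all. As reported, 40 pathway genes were higher and 22 lower. The counts were 23 and 26 with total counts alone, 2 and 3 on log2(FPKM + 1) and 2 and 4 on log2(FPKM + 0.1). Over all genes, 2645 were higher and 2683 lower; total counts alone gave 1390 higher and 3135 lower, so 69.3% of calls were lower. An adjusted p under 0.01 gave 1727 higher, log2(FPKM + 1) gave 418 and 1020, and log2(FPKM + 0.1) gave 401 and 1017. ITPR2 was reversed on log2(FPKM + 1) (-0.26) and log2(FPKM + 0.1) (-0.35). VPREB1 and CD22, never called lower, also changed sign in some settings, VPREB1 in 6 of 17 and CD22 in both FPKM fits. The cause was not tested.

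With the replicate number as a block, 6 of the 9 genes were again higher, 39 pathway genes were higher and 24 lower, and 2708 and 2721 genes in all. Deviations of libraries with equal numbers had a correlation of -0.05. This value cannot show whether libraries of equal number shared a culture or a batch. With 2 libraries a group, the intervals of VPREB1 and BLNK include 0, which does not show that their levels were equal.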

Other observations

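Immunoglobulin variable genes, which belong to no list above, were also transcribed in this line. IGHV1-69 had 7870 and 8548 counts in the AICAR libraries and 7317 and 7716 in the vehicle libraries and rose by 0.27 on the log2 scale (edgeR adjusted p = 0.000259). The lambda variable gene IGLV2-14 rose by 0.24 (edgeR adjusted p = 0.000761). IGLV4-3 went the other way, with 2511 and 2564 counts in the AICAR libraries and 3820 and 4212 in the vehicle libraries (-0.52, edgeR adjusted p = 4.09e-06). These genes were chosen after their values were seen, and variable genes of a family share sequence, so single counts are uncertain.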
